A study of Mus musculus with 30 samples.

Results

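Receptor-deleted brown preadipocytes (Cre) were compared with control cells (Vec) on day 2 of adipogenesis (D2), over the 11918 of 23109 genes (51.6%) whose RPKM reached 1 in at least 1 of the 2 D2 libraries. RPKM, a read count scaled for transcript length and sequencing depth, allows genes and libraries of different size to be compared, and genes that met this rule are called measured below. Both lines descend from brown fat preadipocytes of newborn C57BL/6J pups homozygous for a loxP-flanked glucocorticoid receptor gene, Nr3c1 (GR f/f), made immortal with SV40 T antigen, so control and deleted cells alike carry T antigen and the floxed allele. Retroviral Vec left the gene intact and retroviral Cre deleted it in culture, and the labels do not say whether a line is 1 clone. Confluent cells received dexamethasone (2 µg/ml), IBMX (0.5 mM), indomethacin (0.125 mM), T3 (1 nM) and insulin (0.02 µM), which the labels give as a treatment of 4 hours. The sources used here do not say whether dexamethasone was still present on D2. The series holds 30 samples. Of these, 8 are RNA libraries, 1 for each of 2 genotypes at D0 (before induction), 4 hours (4h), D2 and D7, and the 22 ChIP and input samples were not analysed here. With n = 1 per group there is no replicate check, no p-value is given, and intervals cover counting error only.

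The glucocorticoid receptor is a nuclear receptor that binds DNA after it has bound a steroid such as dexamethasone. It raises transcription of one set of genes, among them Fkbp5, Tsc22d3 and Zbtb16, and lowers that of many inflammatory genes. In adipogenesis, dexamethasone and IBMX, which raises cAMP, induce the early factors C/EBPβ and C/EBPδ, and these precede PPARγ and C/EBPα, which drive the genes of the fat cell. The series addresses how far the receptor speeds adipogenesis or is needed for it, and D2 lies between the early and the late step.

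The D2 libraries were the deepest of the 8, with 28.9 M reads for Vec and 26.5 M for Cre, against 7.7 to 24.7 M for the others. At the median length of a measured transcript, 2768 nucleotides, 3 reads were worth an RPKM of 0.038 in Vec D2 and 0.041 in Cre D2. Both D2 libraries held transcripts of the brown preadipocyte: the RPKM of Pdgfra was 20.0 in Vec and 28.6 in Cre, that of Ebf2 19.2 and 12.8, that of Zic1 3.36 and 3.71 and that of Lhx8 4.70 and 4.77. Ucp1, the defining gene of the mature brown adipocyte, had 5 reads in Vec D2 and 6 in Cre D2, and Cidea had 0 in both. Summed over 9 preadipocyte markers the RPKM was 231 in Vec D2 and 288 in Cre D2. Itgb1 alone had 105 and 116 of these, and Dpp4 was at 0 reads in both. Over 10 skeletal muscle markers the summed RPKM was 9.58 and 16.3, with Myf5 at 0 reads in both. For the endothelial list of 5 it was 0.296 and 1.34 (Cdh5 and Emcn at 0), for 4 macrophage and leukocyte markers 0.122 and 0.279 (Adgre1 and Ptprc at 0), for 5 Schwann and neural markers 1.94 and 4.61, and for 5 epithelial markers 0.048 and 0.111. All 6 sums were higher in Cre D2, and their part in the differences below was not tested.

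Nr3c1 itself had 37.8% of the Vec level in Cre at D2, a larger remainder than at D0 (19.8%), 4h (31.4%) or D7 (20.8%). Its RPKM was 21.3 in Vec D2 and 8.07 in Cre D2, a Cre minus Vec difference of -1.30 on the log2(RPKM + 1) scale, which is used for every difference below. Vec D2 exceeded Cre D2 2.64-fold (95% exact conditional binomial interval 2.48 to 2.81). Reads from exons outside the loxP sites also count as Nr3c1. How much of the remainder they make up was not tested.

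Of all measured genes at D2, 5247 lay above the control in Cre and 6671 below it, but past 2-fold the higher genes were the more numerous. A difference of at least 1 either way, called 2-fold below, was found for 487 measured genes (4.09%): 304 (2.55%) were higher in Cre and 183 (1.54%) lower. The median difference over all measured genes was -0.04, its SD was 0.45, and 82.7% of genes differed by less than 0.5. Before induction the same rule had found 52 of 12007 genes (0.433%), 0.158% higher and 0.275% lower, with an SD of 0.17. At 4h it found 4.24% of genes and at D7 4.5%. At the upper edge of the rule lay Chrdl1, just inside (5.90 in Vec and 12.8 in Cre), and C1s1, just outside (10.7 and 22.4). At the lower edge lay Macrod1, just inside (6.22 and 2.60), and Jade2, just outside (4.65 and 1.84). The pseudocount of 1 shrinks differences of weakly expressed genes, and with a pseudocount of 0.1 the counts were 571 higher and 276 lower. With a pseudocount of 5 they were nearly even, 85 and 79.

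**Figure D1:**
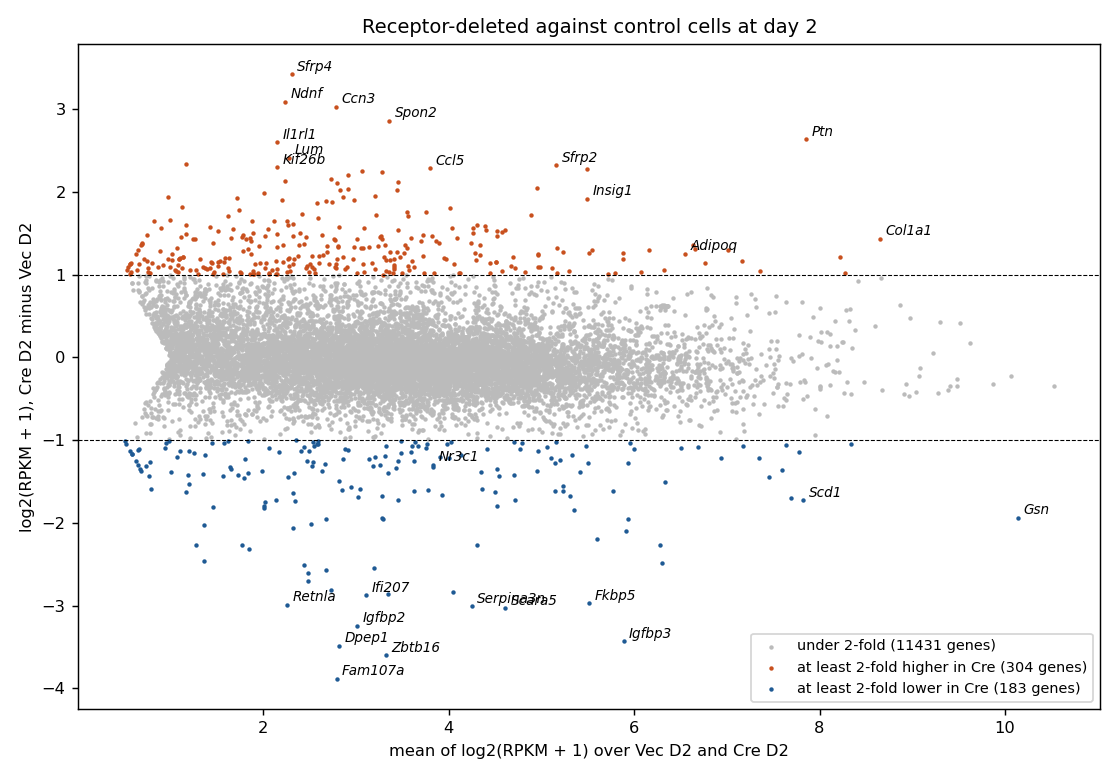
Difference of each measured gene at D2 in log2(RPKM + 1), Cre minus Vec, against its mean level in the 2 libraries; each point is a gene, dashed lines mark a difference of 1 either way, and colours mark the 304 genes higher and the 183 lower in Cre. Gsn, at the far right, is the most abundant gene among those called lower, and Ptn and Col1a1 are abundant genes among those called higher.

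Genes that glucocorticoids induce had the lowest median of the lists. Of 24 listed genes, all measured, 16 were at least 2-fold lower in Cre and 0 higher (66.7% called, beside 4.09% of all genes). The median was -1.32 beside -0.04 for all measured genes. The median RPKM of the list was 38.3 in Vec D2 and 13.0 in Cre D2. Fewer responding cells and less RNA per cell cannot be told apart in such bulk libraries.

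Fkbp5, whose product is a chaperone partner that holds the receptor back, stood at 127 in Vec D2 and 15.4 in Cre D2, 8.30-fold (7.85 to 8.77) higher in Vec. The Cre value lay under the 20.2 and 19.5 of the 2 D0 libraries, so only Vec was above the uninduced level. Tsc22d3, which encodes the leucine-zipper protein GILZ, was at 103 and 21.7 (4.74-fold, 4.45 to 5.05). Zbtb16, a zinc-finger transcription factor, was at 33.8 and 1.87 (18.0-fold, 15.9 to 20.6), and Errfi1, an inhibitor of the EGF receptor, at 169 and 34.4 (4.90-fold). Each of these 4 genes was nearer to its D0 level in Cre than in Vec.

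The metallothionein genes Mt2 and Mt1, which bind zinc, differed by -2.48 and -1.70, and Lcn2, which binds bacterial siderophores, by -2.57 (14.6 in Vec and 1.64 in Cre). Mt1 and Mt2 are close paralogs that may share reads. Klf9, a transcription factor, stood at 69.9 and 21.2, Glul, the glutamine synthetase gene, at 120 and 30.1, and Cebpd, the gene of C/EBPδ, at 41.7 and 11.3. The clock gene Per1 was at 15.9 and 6.10. Sgk1, a kinase gene, was at 9.48 and 5.38, a difference of -0.72, and Irs2, Lrg1, Nfkbia, Ddit4, Bcl6 and Tgm2 lay between -0.57 and -0.98. Angptl4, an inhibitor of lipoprotein lipase, was the exception of the list, at 57.7 in Vec and 73.0 in Cre (0.33).

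**Figure D2:**
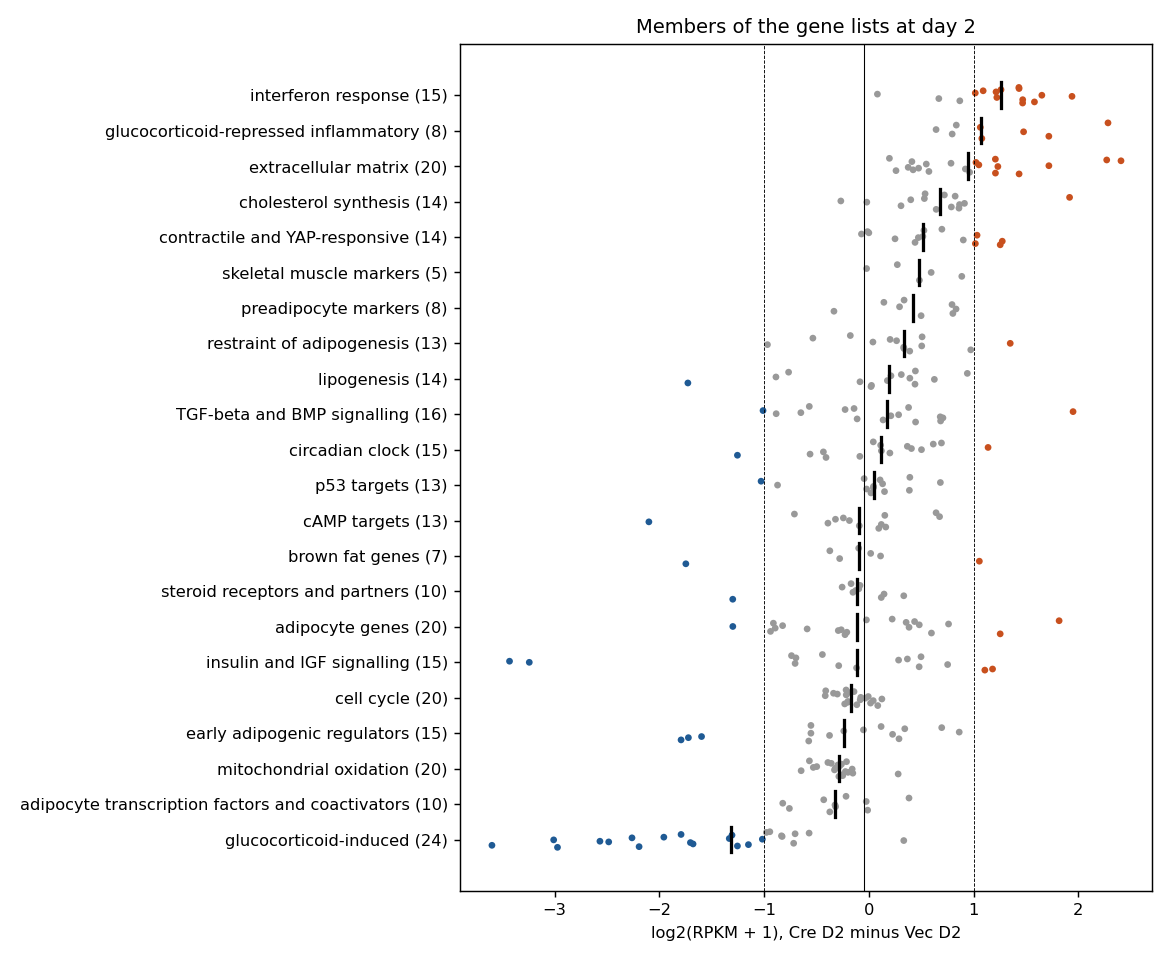
Members of each gene list at D2, as differences in log2(RPKM + 1), Cre minus Vec; each point is a measured gene, the thick bar is the list's median, the number of measured members is in brackets, the solid line is the median of all measured genes (-0.04) and dashed lines mark a difference of 1. The glucocorticoid-induced list lies lowest, with a median of -1.32, and the interferon list highest, with a median of 1.26 that drops to 0.74, under the matrix list, with a pseudocount of 5.

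Promoter windows of 3 of the lower genes are shown because they hold a match to the palindromic core of the glucocorticoid response element, GNACA and TGTNC with 3 bases between them, which reads the same on both strands and is in capitals. The windows are the 250 bases before the annotated start, 5′ to 3′, taken from RefSeq on GRCm38.p6, which is not the build named for these data (mm9). They belong to Fam107a, chr14:8309780-8310029 on the minus strand, Serpina3n, chr12:104406458-104406707 on the plus strand, and Mt1, chr8:94178839-94179088 on the plus strand.
Fam107a: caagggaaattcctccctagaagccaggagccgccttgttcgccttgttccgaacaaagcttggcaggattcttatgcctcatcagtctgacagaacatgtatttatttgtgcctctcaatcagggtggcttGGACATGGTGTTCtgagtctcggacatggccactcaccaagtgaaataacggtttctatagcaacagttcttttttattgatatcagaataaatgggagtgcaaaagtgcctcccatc
Serpina3n: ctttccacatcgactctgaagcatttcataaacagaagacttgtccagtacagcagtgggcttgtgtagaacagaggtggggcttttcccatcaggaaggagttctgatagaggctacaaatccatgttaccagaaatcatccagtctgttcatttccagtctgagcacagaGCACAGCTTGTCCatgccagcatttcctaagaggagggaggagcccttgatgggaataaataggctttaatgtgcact
Mt1: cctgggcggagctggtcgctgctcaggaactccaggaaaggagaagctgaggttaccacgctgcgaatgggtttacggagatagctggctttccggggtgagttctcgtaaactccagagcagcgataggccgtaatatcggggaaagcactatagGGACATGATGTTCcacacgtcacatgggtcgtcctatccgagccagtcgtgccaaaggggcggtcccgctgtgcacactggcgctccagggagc
The last base of the match lies 106 bases before the start in Fam107a, 66 in Serpina3n and 82 in Mt1. Of the 183 genes lower at D2, 122 had a promoter in the table and 5 of those (4.1%) held the motif, against 31 of 9097 measured genes (0.341%) and 2 of the 183 genes with a promoter (1.09%) among the 304 higher ones. The other two of the 5 were Map3k6 and Serpina3c, and those among the higher genes were Cpxm1 and Mir100hg, all named after their values were seen. Of the glucocorticoid-induced list, 19 genes had a promoter and 3 of them (15.8%) held the motif, Mt1, Serpina3n and Sgk1. A match describes letters only, and binding of the receptor there was not analysed here. The sterol regulatory element, TCACNCCAC, was searched in the same windows. It was also held by 5 of the 122 lower genes (4.1%), against 107 of 9097 measured genes (1.18%) and 3 of the 183 higher ones (1.64%). Of 8 cholesterol synthesis genes with a promoter, 0 held it.

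Outside the list, the largest negative differences were those of Fam107a, Dpep1, Igfbp3, Igfbp2 and Scara5. Fam107a, which encodes an actin-binding protein, was at 25.6 in Vec D2 and 0.803 in Cre D2, a difference of -3.88 and the lowest of all measured genes (31.8-fold, 25.0 to 41.2). Igfbp3, a carrier of insulin-like growth factors, was at 193 and 17.0 (11.4-fold, 10.7 to 12.1), and Igfbp2, its relative, at 23.8 and 1.62 (14.7-fold, 11.2 to 19.5). Igfbp3 is thus among the more abundant of these genes, at 13609 reads in Vec D2 and 1101 in Cre D2.

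Dpep1, a membrane dipeptidase gene, differed by -3.49, Scara5, a ferritin receptor gene, by -3.03 and Ace, the angiotensin-converting enzyme gene, by -2.70. Adamts15, a matrix protease gene, differed by -2.84. Serpina3n and Serpina3m, acute-phase protease inhibitors of a family that may share reads, differed by -3.01 and -2.60. Retnla, a resistin-like secreted factor, was at 12.5 and 0.694, on only 215 and 11 reads (18.0-fold, 9.84 to 36.5). Map7d2, Arhgap36 and Ifi207 differed by -2.85, -2.81 and -2.87. The 15 genes with the largest negative differences stood between 12.5 and 193 in Vec D2 and between 0.694 and 17.0 in Cre D2. Gsn, which encodes the actin-severing protein gelsolin and was picked here after its value was seen, had the highest RPKM of Vec D2 at 2203, against 575 in Cre D2 (3.83-fold, 3.79 to 3.87).

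The largest positive differences were those of Sfrp4, Ndnf, Ccn3, Spon2 and Ptn, all of which encode secreted proteins. Sfrp4, a secreted antagonist of Wnt ligands, was at 0.512 in Vec D2 and 15.2 in Cre D2 (29.7-fold, 20.1 to 45.7), on 26 and 709 reads. Its level at D0 had been 16.8 in Vec and 15.8 in Cre and at D7 it was 25.7 and 41.7, so Vec D2 was the low library. Sfrp2, of the same family, was at 15.0 and 79.1 (5.27-fold, 4.90 to 5.67). The growth factor gene Ptn, pleiotrophin, was at 91.9 and 577 (6.28-fold, 6.10 to 6.46), and Ccn3, a matricellular protein gene, at 1.41 and 18.6 (13.3-fold, 10.8 to 16.5). Ptn and Ccn3 had stood in Vec at 765 and 143 at D0, and in Cre at 722 and 120, so both lines were lower at D2 than at D0 and Vec the more so.

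Ndnf, a secreted neurotrophic factor gene, was higher by 3.09, Spon2, a matrix protein gene, by 2.86 and Il1rl1, the interleukin 33 receptor gene, by 2.60. Kif26b, Sod3, Rgs16 and Syt13 were higher by 2.13 to 2.30. Sod3 is the extracellular superoxide dismutase. The 15 genes with the largest positive differences stood between 0.512 and 91.9 in Vec D2 and between 8.82 and 577 in Cre D2.

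The listed extracellular matrix genes lay above the control without exception in sign. Of 20 listed genes, all measured, 9 were at least 2-fold higher in Cre and 0 lower (45% called, beside 4.09% of all genes). All 20 differences were above 0, with a median of 0.94. The proteoglycan genes Lum and Dcn led, Lum at 1.10 in Vec and 10.2 in Cre and Dcn at 19.5 and 97.8 (5.03-fold, 4.70 to 5.38). The fibrillar collagen chains Col1a1 (244 and 662), Col1a2 (196 and 454) and Col3a1 (289 and 564) differed by 1.43, 1.21 and 0.96. Thbs2, thrombospondin 2, was at 15.3 and 52.6. Mmp2, Col5a2 and Postn differed least, by 0.20, 0.26 and 0.38. Outside the list, 2 of 3 measured type IV collagen genes, picked after their values were seen, were at least 2-fold lower.

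Contractile and YAP-responsive genes lay above the control in part. Of 14, all measured, 4 were at least 2-fold higher and 0 lower (28.6% called, beside 4.09% of all genes). The median was 0.52, and with a pseudocount of 5 the count of higher genes was 1. Acta2, smooth muscle actin, was at 19.2 in Vec D2 and 47.3 in Cre D2, against 581 and 507 at D0, so that both D2 libraries lay well under the uninduced level. The others were Myl9 (5.63 and 15.0), Tagln (a difference of 1.02) and Ccn2 (0.938 and 2.97). Of 8 measured preadipocyte markers 0 were called either way, with a median of 0.42. Their highest differences were Ly6a (0.83), Pdgfrb (0.80) and Cd24a (0.79), while Itgb1 differed by 0.14 and Cd34 alone lay below 0 (-0.33).

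Interferon-stimulated genes stood higher in Cre. Of 16 listed, 15 were measured, and 12 of them were at least 2-fold higher and 0 lower (80% called, beside 4.09% of all genes). The median was 1.26. Of the 12, Mx2 (0.443 and 2.35), Ifi44 (0.369 and 1.92) and Xaf1 (0.467 and 2.96) reached an RPKM of 1 in Cre alone, and the count was 9 with an RPKM of 1 asked of both libraries. The pseudocount weighs on these weakly expressed genes: with 5 the count was 4 and the median 0.74, under the 0.93 of the matrix list and the 0.75 of the inflammatory list. Isg15, a ubiquitin-like protein gene, was at 7.47 in Vec D2 and 22.4 in Cre D2 (3.00-fold, 2.51 to 3.62). The antiviral genes Ifit1 and Ifit3 were at 11.1 and 35.3 and at 1.44 and 5.76, and Oasl2 at 2.71 and 13.2 (4.89-fold, 4.25 to 5.63). Irf7, a transcription factor of the pathway, was at 1.45 and 6.71.

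Both lines had lower interferon transcripts at D2 than at any other time. The list's median RPKM in Vec was 2.71 at D2 but 33.9, 34.6 and 40.7 at D0, 4h and D7, and in Cre it was 7.77 at D2 but 40.2, 48.7 and 42.6. A difference in the same direction was there before induction, though smaller. At D0 the list's median difference was 0.26 with 0 of 16 called, at 4h it was 0.60 with 3 called higher (1.65% of all genes), and at D7 it was 0.06 with 0 called.

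Windows of 3 of the higher interferon genes are shown because 6 of the 12 listed genes with a promoter in the table (50%) held GAAA, 2 further bases and GAAA, the core of the interferon-stimulated response element, on either strand, against 274 of 9097 measured genes (3.01%). A window of Ifi207, an interferon-inducible gene that was lower in Cre, is set beside them. Capitals mark the matches, and the reverse complement is seen where the match is on the other strand. The windows are Isg15, chr4:156200819-156201068 on the minus strand, Ifit1, chr19:34640639-34640888 on the plus strand, Ifit3, chr19:34583279-34583528 on the plus strand, and Ifi207, chr1:173741810-173742059 on the minus strand.
Isg15: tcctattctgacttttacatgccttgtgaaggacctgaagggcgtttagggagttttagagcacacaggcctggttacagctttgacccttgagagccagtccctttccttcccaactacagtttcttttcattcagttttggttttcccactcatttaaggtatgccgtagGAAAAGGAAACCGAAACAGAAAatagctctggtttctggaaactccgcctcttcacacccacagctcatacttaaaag
Ifit1: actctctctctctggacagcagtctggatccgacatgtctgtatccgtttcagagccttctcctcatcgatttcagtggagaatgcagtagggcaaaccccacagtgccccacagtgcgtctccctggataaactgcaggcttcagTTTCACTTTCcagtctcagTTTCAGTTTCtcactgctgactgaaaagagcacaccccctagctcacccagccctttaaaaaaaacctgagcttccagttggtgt
Ifit3: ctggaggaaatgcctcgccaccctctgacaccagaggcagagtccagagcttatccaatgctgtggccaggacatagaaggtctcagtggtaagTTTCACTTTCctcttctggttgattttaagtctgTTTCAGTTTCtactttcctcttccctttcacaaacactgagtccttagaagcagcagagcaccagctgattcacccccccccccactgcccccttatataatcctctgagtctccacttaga
Ifi207: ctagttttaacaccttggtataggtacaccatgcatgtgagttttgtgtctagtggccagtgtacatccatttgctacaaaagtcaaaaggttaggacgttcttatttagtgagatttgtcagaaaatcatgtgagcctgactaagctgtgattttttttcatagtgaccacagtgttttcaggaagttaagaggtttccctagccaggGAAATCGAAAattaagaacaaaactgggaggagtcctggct
Isg15 holds 3 overlapping matches, Ifit1 and Ifit3 hold 2 each and Ifi207 holds 1. Of all 183 higher genes that had a promoter, 21 (11.5%) held the motif, and of the 122 lower ones 6 (4.92%). A match was therefore present in genes on both sides of the comparison.

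Inflammatory genes that glucocorticoids are known to repress were higher in Cre where they could be measured. Of 16 listed, 8 were measured, and 5 of them were at least 2-fold higher and 0 lower (62.5% called, beside 4.09% of all genes). The median was 1.07. Over all 16, with no filter, the median was 0.57, and Il6 (-0.11) and Mmp3 (-0.05) lay below 0. With a pseudocount of 5, 3 were called. The chemokine genes Ccl5 (5.28 in Vec D2 and 29.6 in Cre D2, 5.60-fold, 4.41 to 7.20), Ccl7 (4.12 and 15.9), Cxcl10 (6.91 and 21.0) and Ccl2 (2.79 and 7.02) and the adhesion gene Vcam1 (6.34 and 14.4) made up the 5. Ccl5 and Cxcl10, also targets of interferon, were higher in Cre before induction too, by 0.65 and 0.61, whereas Ccl7, Ccl2 and Vcam1 differed by -0.02, -0.02 and -0.10 at D0. Their levels at D2 were below D0 in Vec for all 5. In Cre they were below D0 for Ccl7, Ccl2 and Vcam1 only.

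**Figure D3:**
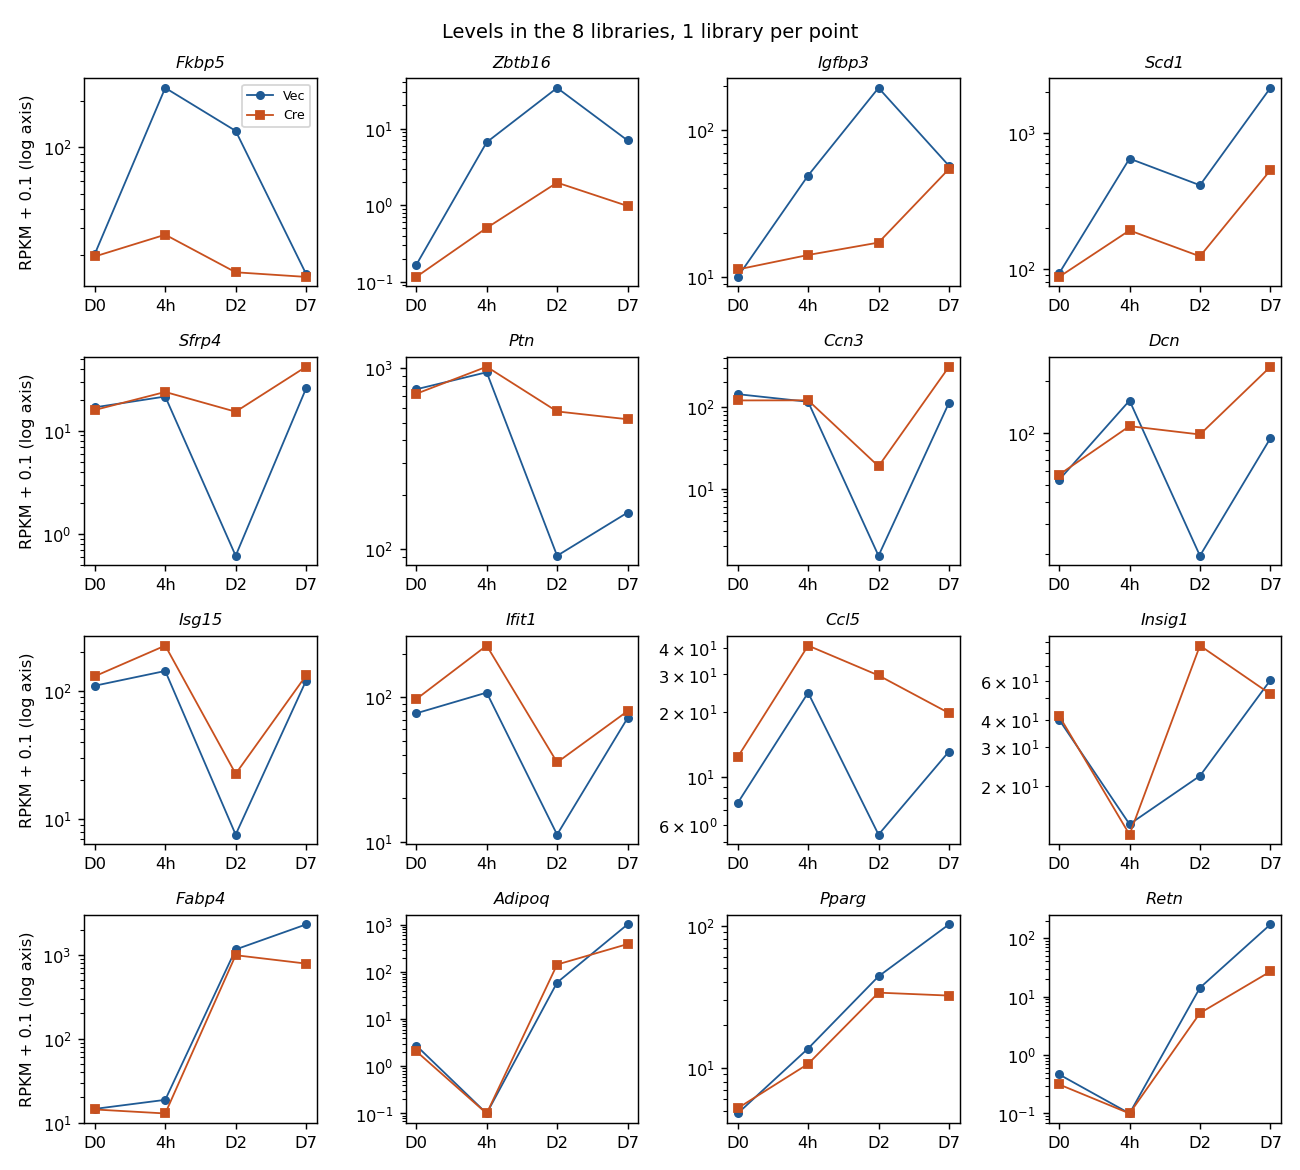
RPKM of 16 genes in the 8 libraries, with 0.1 added, on log axes with their own range; circles are Vec and squares Cre, 1 library per point, and lines join libraries of 1 line. The gap in Fkbp5, Zbtb16 and Igfbp3 is open at 4h and D2, and in Zbtb16 it is open at D7 too. The gap in Sfrp4, Ptn, Ccn3 and Dcn is widest at D2, and Adipoq crosses between D2 and D7.

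The adipocyte genes went both ways at D2. Of 22 listed, 20 were measured, 2 were at least 2-fold higher in Cre and 1 lower (15% called either way, beside 4.09% of all genes), with a median of -0.12. A difference of at least 0.5 either way was found for 10 of the 20 (50%), against 17.3% of all measured genes. Fabp4, the fatty acid binding protein of fat cells, differed by -0.23 and Lpl, lipoprotein lipase, by -0.26 (784 in Vec D2 and 653 in Cre D2). Plin1, which coats the lipid droplet, was at 33.0 and 50.5 (0.60). Cidec, which enlarges lipid droplets, was at 78.7 and 40.6 (-0.94), and the lipase gene Pnpla2 and the triglyceride synthesis gene Dgat2 differed by -0.89 and -0.82.

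The 3 called genes of that list pointed both ways, and with a pseudocount of 5 the list had 1 higher and 0 lower. Adipoq, adiponectin, was at 59.7 in Vec D2 and 144 in Cre D2 (2.41-fold, 2.29 to 2.54), and Pck1, which supplies glycerol for triglycerides, at 0.159 and 3.08, on 12 and 214 reads. Retn, resistin, had 236 and 79 reads (2.75-fold higher in Vec, 2.12 to 3.59). Lep, leptin, had 0 reads in both libraries. At D7, 19 of the 22 genes were at least 2-fold lower in Cre (3.12% of all genes) and 0 higher, with a median of -1.51, in libraries that the D2 comparison does not share.

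Among regulators upstream of these genes, 3 early factors were lower. Of 15 early adipogenic regulators, all measured, 3 were at least 2-fold lower and 0 higher (20% called, beside 4.09% of all genes). The median was -0.24. The 3 were Cebpd, Klf5 (6.99 in Vec D2 and 1.42 in Cre D2) and Klf15 (22.8 and 6.85), the last 2 being Krüppel-like transcription factors. Cebpb, the partner of Cebpd, was at 115 and 77.0 (-0.57), and Fosl2 was highest in Cre at 0.86. Of 12 listed transcription factors and coactivators of the adipocyte, 10 were measured and 0 were called, with a median of -0.32. Pparg was at 43.9 and 33.7 (1.30-fold higher in Vec, 1.22 to 1.39) and Cebpa at 207 and 205 (1.01-fold, 0.985 to 1.03). The nuclear receptor genes Nr1h3 and Rxra differed by -0.82 and -0.76.

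Brown fat genes gave few values at this stage. Of 15 listed, 7 were measured, 1 was higher and 1 lower (28.6% called, beside 4.09% of all genes), with a median of -0.10. Elovl3, a fatty acid elongase gene of brown fat, was at 6.40 in Vec D2 and 1.20 in Cre D2 (5.31-fold, 4.03 to 7.11). Adrb3, the β3-adrenergic receptor gene, was at 0.682 and 2.50, on 55 and 185 reads. With a pseudocount of 5, 0 of the list were called higher and 0 lower. Zic1 and Lhx8, which mark the brown lineage, differed by 0.11 and 0.02.

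Lipogenic and sterol genes had different medians, and the difference was not tested. Of 15 lipogenesis genes, 14 were measured, 1 was lower and 0 higher (7.14% called, beside 4.09% of all genes), with a median of 0.19. Scd1, the stearoyl-CoA desaturase, was the lower one, at 412 in Vec D2 and 124 in Cre D2 (3.33-fold, 3.27 to 3.39), whereas its paralog Scd2, fatty acid synthase Fasn and the carboxylase gene Acaca differed by -0.08, 0.02 and 0.03. Thrsp, a lipogenic regulator, differed by -0.89 and Acss2, which makes acetyl-CoA from acetate, by 0.94. Of 15 cholesterol synthesis genes, 14 were in the tables and measured, and 1 of them (7.14%) was called. Only Insig1, which holds sterol regulators in the endoplasmic reticulum, was called, at 22.1 and 86.4 (3.90-fold higher in Cre, 3.70 to 4.12), but 12 of 14 differences were above 0, with a median of 0.68. Sqle, the squalene epoxidase gene, differed by 0.79, while Cyp51 lay at -0.27. At D0 the median of that list was -0.02 and at D7 it was 0.01.

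Mitochondrial and proliferation genes were closer to the control. Of 20 mitochondrial oxidation genes, all measured, 0 were called, yet 19 differences were below 0, with a median of -0.28. Idh3a, of the citric acid cycle, was lowest at 166 in Vec D2 and 105 in Cre D2, and Cpt1b, which imports fatty acids, was the one above 0 (0.28). For 20 cell cycle genes, all measured, 0 were called and the median was -0.17, between Mcm2 (-0.42) and Cenpa (0.12). The proliferation marker Mki67 was at 29.4 and 31.2. Of 13 p53 targets, all measured, 0 were higher and 1 was lower (Perp, -1.03), with a median of 0.05. That is 7.69% called, beside 4.09% of all genes.

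In the signalling lists between 1 and 4 genes each were called, a share of 7.69% to 26.7% beside 4.09% of all measured genes. Of 15 insulin and IGF genes, all measured, Igfbp3 and Igfbp2 were lower and the ligands Igf1 (16.4 in Vec D2 and 36.5 in Cre D2) and Igf2 (12.0 and 28.5) higher, around a median of -0.12. Of 13 measured cAMP targets out of 15, Rgs2, a regulator of G-protein signalling, differed by -2.10 and 0 were higher, with a median of -0.09. Of 15 measured clock genes out of 16, Per1 differed by -1.25 and Dbp by 1.14, with a median of 0.12. Of 16 measured TGF-beta and BMP genes out of 20, the BMP antagonist Grem1 differed by 1.95 and the activin antagonist Fst by -1.01, with a median of 0.17. The list of restraints on adipogenesis had 13 of 16 measured, 1 higher (Sox9, 3.03 and 9.28) and 0 lower, with a median of 0.33. Apart from Nr3c1, 0 of the other 9 measured steroid receptors and partners were called, and Hsd11b1, which regenerates active glucocorticoid, differed by 0.15.

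Genes called at D2 were compared with their own differences at the other times, each from its own pair of libraries. Of the 183 genes lower at D2, 71 were also lower at 4h, which is 38.8% of the D2 calls and 23.1% of the 308 (2.59% of all genes) at 4h. At D7, 34 were lower too, 18.6% of the D2 calls and 8.74% of the 389 (3.12% of all genes) at D7. Of the 304 genes higher at D2, 36 were higher at 4h (11.8%, and 18.4% of the 196 there) and 49 at D7 (16.1%, and 28.3% of the 173 there), where 1.65% and 1.39% of all genes were called higher. At D0, 3 of the lower and 0 of the higher genes were called the same way. Opposite calls numbered 5 at 4h and 2 at D7 among the lower genes, and 6 at D0, 9 at 4h and 10 at D7 among the higher. Of all genes, 1.65% at 4h and 1.39% at D7 were called higher. The shares called lower were 0.275% at D0, 2.59% at 4h and 3.12% at D7.

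**Figure D4:**
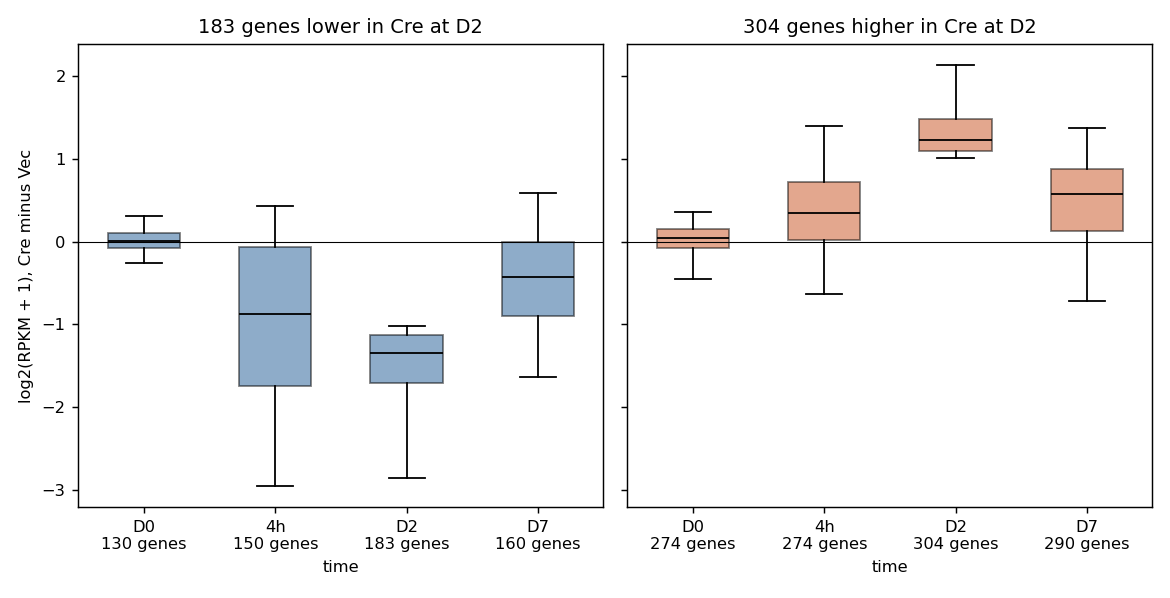
Difference in log2(RPKM + 1), Cre minus Vec, at each time for the genes called lower (left) and higher (right) at D2, limited to genes that reached an RPKM of 1 in either library of that time; boxes span the quartiles, the line is the median and whiskers reach the 5th and 95th percentiles. The D2 boxes follow from the choice of genes; the medians elsewhere are 0.01, -0.88 and -0.42 (lower genes) and 0.04, 0.35 and 0.58 (higher genes) at D0, 4h and D7.

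Some genes differed throughout the induced period. Lower at 4h, D2 and D7 were 11 genes, led by Zbtb16, Dpep1, Rgs2, Glul and Scd1. Rgs2 was at 234 in Vec and 34.6 in Cre at 4h, 124 and 28.1 at D2 and 46.2 and 11.2 at D7. Higher at all 3 times were 6 genes, of which 4 carry symbols that the naming rule allows: Grem1, Eps8 (a regulator of actin), Lbh and Ahr, the aryl hydrocarbon receptor gene. Grem1 was at 27.2 and 94.4 at 4h, 3.70 and 17.2 at D2 and 19.7 and 52.8 at D7, and at D0 it had been at 90.6 and 81.0.

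Other genes were called at D2 and differed by little at the other times, with no minimum level asked for there. The rule was put to the 10937 measured and nameable genes with at least 30 reads over the D2 libraries. Of all genes at each time, 98.7% differed by less than 0.5 at D0, 83.6% at 4h and 78.7% at D7. Nameable genes called at D2, with any number of reads, were 262 higher and 162 lower. Of the 10937, 53 were higher and 33 lower at D2 while differing by less than 0.5 at D0, 4h and D7. The lower ones were led by Arhgap36 (1455 reads in Vec D2 and 121 in Cre D2), Hsd11b2, whose enzyme inactivates glucocorticoid (7.01 and 0.612), Ifi211 (11.6 and 2.26), Elovl3 and Ifi204 (18.9 and 5.03). The higher ones included Sfrp2, Sntb1 (1.01 and 7.00), Insig1 and the guanylate-binding protein gene Gbp3 (2.49 and 11.9). In Arhgap36, Hsd11b2 and Elovl3 the Vec D2 library was the one above the rest, since their other 7 libraries lay between 0 and 2.52. At D0, 4h and D7, Hsd11b2 and Elovl3 stayed under an RPKM of 1, where the pseudocount of 1 keeps differences small. A difference at those times could hardly be measured for these genes. For Gbp3 Vec D2 was the lowest library and Cre D2 the next, with the other 6 between 21.3 and 69.2.

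To compare the lines at D2 on genes that change in both during differentiation, genes were chosen on the D0 and D7 libraries only. A difference from D0 to D7 of at least 2 in both lines was found for 128 genes upward and 0 downward, and 114 of the 128 were measured at D2. At D2, 16 of these were called higher in Cre and 10 lower, where 2.55% and 1.54% of all measured genes were. Of the 114, 60 lay above 0 and 54 below, and the median difference was 0.12. Their median level in log2(RPKM + 1) was 0.97 in Vec and 1.01 in Cre at D0, 3.67 and 3.59 at D2, and 5.50 and 4.34 at D7. The medians of the lines thus stood close together at D2 and apart at D7, the D0 and D7 levels being those used to choose the genes. Genes that rose that far in Vec alone or in Cre alone were left out by the rule. The medians at D2 therefore cannot say how far each line had moved as a whole. Single genes were not all close at D2, with differences from -3.43 (Igfbp3) to 2.32 (Sfrp2). The lower ones at D2 included Igfbp3, Glul, Scd1 and Retn, and the higher ones Sfrp2, Pck1, Adipoq, Igf1 and Adrb3. With a threshold of 1, chosen after the data were seen, the median turned to -0.07, with 34 higher and 38 lower.

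**Figure D5:**
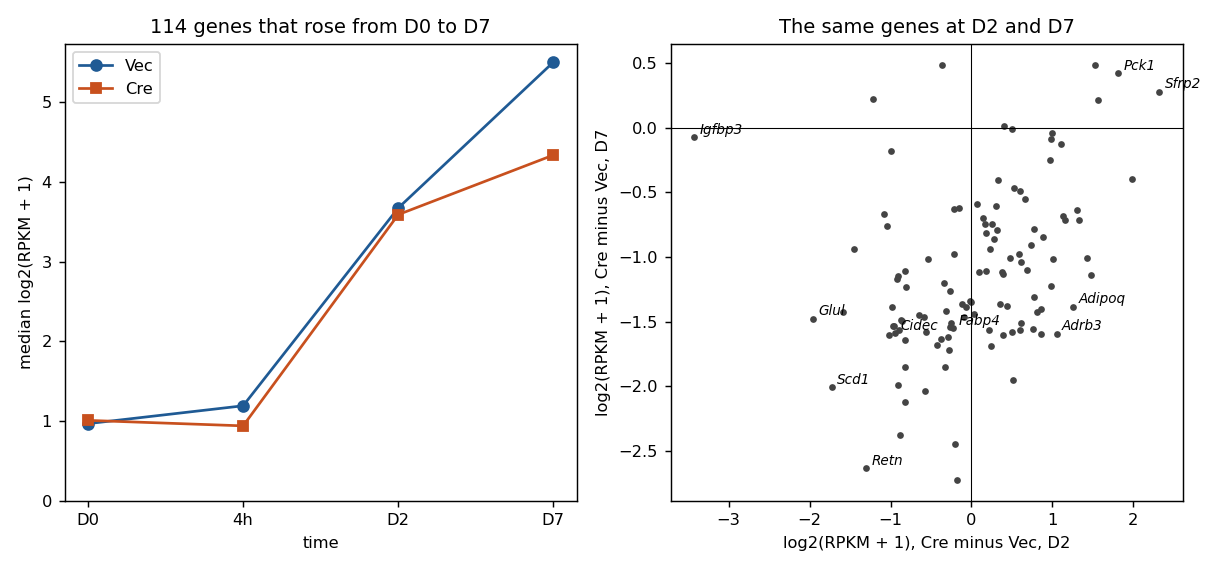
Left, median level in log2(RPKM + 1) of the 114 genes that were at least 2 higher at D7 than at D0 in both lines, by library, for Vec (circles) and Cre (squares); right, difference of each of these genes, Cre minus Vec, at D2 (horizontal) and D7 (vertical). The medians of both lines are 3.67 and 3.59 at D2 and 5.50 and 4.34 at D7, and most points lie under 0 at D7 but on both sides of 0 at D2.

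The genes called at D2 were also set against the course of the control line from D0 to D7, which uses no D2 library. Of the 183 lower genes, 77 (42.1%) had a Vec level at D7 at least 2-fold above D0, and for 6 (3.28%) it was as far below. Of the 304 higher genes the counts were 44 (14.5%) and 70 (23.0%). Over all measured genes they were 895 (7.51%) and 488 (4.09%).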

How the data were processed

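RNA of 8 libraries was sequenced after mRNA purification, and 2 of them, Vec D2 and Cre D2, make up the comparison. Per the file headers, the authors deposited for each library a read count and an RPKM value per RefSeq transcript accession. The submitters' processing notes name CASAVA 1.8.2, SICER and mm9, and the sources used here do not give the RNA aligner and counter. Count divided by RPKM gave back each library's total. Of 29082 accessions, 97.8% matched a symbol (RefSeq, GRCm38.p6, names and promoters only), and the accession with most reads over the 8 libraries stood for a gene. Differences are log2(RPKM + 1), Cre minus Vec, over genes that reached an RPKM of 1 in either library, and called from 1 upward in size. With 1 library per side there is no residual degree of freedom and no test. Intervals of single ratios are exact (Clopper-Pearson, 95%), from the reads of both libraries given their sum (scipy 1.17.1).

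The code was tested on simulated data. TMM factors came from edgeR 4.0.16 (R 4.3.3) and size factors from the median of ratios. Named genes were Nr3c1, list members, the 15 largest differences per direction with at least 30 reads, and 5 per direction each for genes that differ at D2 alone and at 4h, D2 and D7, leaving out Rik, LOC, Mir, Snor, Scarna, Rnu and similar symbols. The members and the 26 gene lists (20 of pathways, 6 of markers) were chosen with earlier results of these data known. Listed genes absent from the tables were not analysed here. Some genes that the naming rule covers are not reported here.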

Additional observations from a re-analysis of the deposited data

Results flagged for a closer look

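Adipoq and Adrb3 stood higher in Cre at D2 and lower in Cre at D7. Adipoq differed by 1.25 at D2 (RPKM 59.7 in Vec and 144 in Cre) and by -1.38 at D7 (1021 and 391). Adrb3 differed by 1.06 at D2 (0.682 and 2.50) and by -1.59 at D7 (52.8 and 16.8). At D2 Adrb3 was no longer called with a pseudocount of 5 or with an RPKM of 1 asked of both libraries. Adipoq and Adrb3 are 2 of 10 genes called lower at D7 among the 304 called higher at D2. Of all genes at D7, 3.12% were called lower, so the count of 10 is near that share. Cd1d1 (1.48 and -1.14), Rasd1 (1.43 and -1.01) and Adcy5 (1.01 at D2 and -1.01 at D7), also among the 10, were chosen after their values were seen. Each value rests on 1 library per line and time, and the difference between the times was not tested.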

How the results depend on the processing

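The 2 counts of called genes depended most on the pseudocount and the threshold: 571 higher and 276 lower with a pseudocount of 0.1, 85 and 79 with 5, and 932 and 644 at a threshold of 0.58 (1.5-fold), against 304 and 183. With the filter, scaling, accession and interval alternatives and after subtraction of the D0 difference they stayed within 1.5 times. Nr3c1 differed by -1.39 and -1.01 with pseudocounts of 0.1 and 5. For the differentiation genes the median was 0.0056 with a pseudocount of 0.1 and reversed to -0.0743 with a D0 to D7 threshold of 1; called members were 33 higher and 39 lower with a pseudocount of 0.1, 2 and 3 with 5, 10 higher with an RPKM of at least 5, and 34 and 38 with a threshold of 1. With a pseudocount of 0.1, 21.0% of higher and 25.4% of lower D2 calls were called likewise at D7. Across 344 values of 44 named genes and 182 medians of 23 lists, 0 reversed, while 79 and 19 moved by more than the counting interval. The 0 says little, since a change of pseudocount or filter cannot turn the sign of a single gene's difference. For single genes only the scaling and accession settings could have done so. A list median under 0.1 in size was not counted as reversed. No paired analysis was possible because each group holds 1 RNA library. Depth limits genes near 3 reads, an RPKM of about 0.04.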

Other observations

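Some gene families outside the lists, picked after their values were seen, are given here by their members at D2. Of the HIN-200 family of interferon-inducible DNA sensors, 5 of 11 genes were measured and 4 were at least 2-fold lower in Cre: Ifi207 (22.4 in Vec D2 and 2.20 in Cre D2), Ifi211 (11.6 and 2.26), Ifi204 (18.9 and 5.03) and Ifi205 (2.73 and 0.397). These genes are similar and may share reads. The interferon-inducible guanylate-binding proteins lay on the other side, with 4 of 10 measured, 3 higher and 0 lower, among them Gbp3 (1.88) and Gbp2 (1.55).

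All 3 measured secreted frizzled-related genes, Sfrp1 (1.02), Sfrp2 (2.32) and Sfrp4 (3.42), were higher in Cre. Of 4 measured fibroblast growth factor genes, 2 were higher, Fgf7 (4.41 in Vec D2 and 20.9 in Cre D2) and Fgf2 (24 and 96 reads), while Fgf10 differed by 0.11 and Fgf21 by -0.80. Of 3 measured type IV collagen genes of the basement membrane, 2 were lower, Col4a1 (326 and 147) and Col4a2 (208 and 98.9), while Col4a5 differed by 0.16. Of the acute-phase genes Orm1, Orm3, Saa3 and Hp, 3 were lower: Orm3 (4.30 and 0.0975, on 96 and 2 reads, 44.1-fold with an interval of 11.9 to 369), Saa3 (6.52 and 1.14) and Hp (13.3 and 3.76).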
